A study of Mus musculus with 10 samples.

Results

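The 7 genes described here encode transcription factors known for driving epithelial-mesenchymal transition: the paired-related homeobox factors Prrx1 and Prrx2, the basic helix-loop-helix factors Twist1 and Twist2, the zinc finger repressors Snai1 and Snai2, and the zinc finger and homeodomain repressor Zeb1. They were taken as a named list, 7 of the 46517 genes in the count tables, and all 7 were among the 13986 genes that passed the filter on low counts. RNA was sequenced from cells of a mouse tumour, the malignant peripheral nerve sheath tumour (MPNST), a Schwann-lineage sarcoma that was carried as allografts. There were 5 models of it (A, B, C, D and E), and each was sorted into a GFP+ and a GFP- library, 10 in all. The series' title sets cells that express a transgene named CGD, which it does not expand, against cells that do not, and GFP+ is read here as the expressing population. Dead cells, and cells the labels call wildtype, were gated out. The labels give no genotype, strain, sex, age or driver of the transgene for any model. Nor do they say whether a model stands for 1 animal or several. The question set by the design is which genes differ between the populations of the same tumour model.

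Total reads in genes ran from 15978673 to 22082207 per library. Levels are given as CPM, counts of a gene scaled to its library's total of gene reads. The 7 genes had between 390 and 22354 reads in every library. The labelled tumour cell type rests on a lineage whose markers were uneven: Sox10, the Schwann cell specifier, stood at 0.43 CPM or less in all 4 libraries of models A and E and at 1.63 to 112 CPM in those of B, C and D. Ptprc, the pan-leukocyte marker, reached at most 0.45 CPM and the endothelial marker Pecam1 at most 1.31 CPM in any library. Other markers of these types were higher. The 12 immune markers summed to 9.18 to 17.8 CPM (GFP+) and 8.09 to 23.7 CPM (GFP-). The 10 endothelial markers summed to 5.55 to 16.0 CPM (GFP+) and 4.72 to 23.8 CPM (GFP-).

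As background, epithelial-mesenchymal transition is the loss of junctions and apical polarity by epithelial cells and their gain of a migratory form. Snail and Zeb proteins bind E-box sequences such as CACCTG and recruit co-repressors to epithelial genes, of which E-cadherin (Cdh1) is the best known. Twist proteins bind E-boxes as dimers with E proteins, and Id proteins take those partners away. Prrx proteins are homeodomain factors of limb, craniofacial and connective tissue mesenchyme. Several of these factors act in neural crest cells, from which Schwann cells arise. Most sarcomas have no epithelial form to lose, and these genes are commonly expressed in sarcomas.

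The promoters of the Prrx pair and of Snai1 are shown because the Prrx genes had the lowest p of the 7 in the comparison of the populations, and Snai1 is known to repress its own transcription. Each is the 250 bases before the RefSeq start (build GRCm38.p6, the assembly also called mm10), 5′ to 3′ on the gene's strand. RefSeq windows were found for 5 of the 7 genes. Prrx1 is at chr1:163313651-163313900, minus strand, Prrx2 at chr2:30845117-30845366, plus strand, and Snai1 at chr2:167537945-167538194, plus strand. Capitals mark matches to any of 4 motifs, searched for on both strands. The E-box of Snail and Zeb proteins was spelled CACCTG. An E-box form that Twist proteins bind was spelled CATCTG. The homeodomain core was spelled TAATTA and the core promoter element TATAAA.
Prrx1: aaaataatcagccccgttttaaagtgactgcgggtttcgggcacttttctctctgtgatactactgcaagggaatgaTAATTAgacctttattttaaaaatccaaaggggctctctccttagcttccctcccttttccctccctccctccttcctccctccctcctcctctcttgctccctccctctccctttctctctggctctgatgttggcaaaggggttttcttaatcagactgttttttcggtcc
Prrx2: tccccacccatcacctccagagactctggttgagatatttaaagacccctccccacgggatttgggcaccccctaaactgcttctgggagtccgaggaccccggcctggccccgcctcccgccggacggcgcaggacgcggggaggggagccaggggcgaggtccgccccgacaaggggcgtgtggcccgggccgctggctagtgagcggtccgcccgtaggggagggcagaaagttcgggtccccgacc
Snai1: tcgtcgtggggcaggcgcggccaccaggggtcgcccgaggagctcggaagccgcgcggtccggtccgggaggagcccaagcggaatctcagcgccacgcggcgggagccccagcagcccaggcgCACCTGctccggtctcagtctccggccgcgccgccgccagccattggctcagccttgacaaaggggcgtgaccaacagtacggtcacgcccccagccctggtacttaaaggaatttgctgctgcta

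Snai1 held 1 match to CACCTG, beginning 126 bases before its start, and this motif occurred in 17.2% of 32851 promoter windows of the same length. Prrx1 held 1 match to TAATTA, 173 bases before its start, where 4.84% of windows held one, and the Prrx2 window held none of the 4 motifs. The windows also differed in base composition, at 47.6% GC for Prrx1 and 70.0% for both Prrx2 and Snai1, against a median of 52.4% over all windows. The Prrx2 window lies inside the longer gene model of the annotation, downstream of its outermost start. The 3′ end of the Prrx1 window also overlaps its gene model, whose outermost start is at 163313710. Of the other windows, Twist1 held TATAAA (12.4% of windows) and Twist2 none. CATCTG (14.4% of windows) was in none of the 5.

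All 7 genes were expressed in every library. Levels of different genes were compared per kilobase of merged exons, from the annotation. On this scale Twist1 had the highest mean, 83.5 ± 23.9 CPM per kb (SD over 10 libraries), followed by Prrx1 at 76.3 ± 14.3 and Snai1 at 60.4 ± 9.93. Snai2 followed at 44.6 ± 27.9, Prrx2 at 28.2 ± 12.4, Twist2 at 20.3 ± 6.90 and Zeb1 at 14.5 ± 2.13 CPM per kb. Neighbours in this order were not apart beyond their spread: each gene exceeded the next in 6 to 8 of 10 libraries, with 8 for Prrx1 over Snai1 and for Twist2 over Zeb1. The merged exons are longest for Prrx1 (11.07 kb) and Zeb1 (10.27 kb), and a level per kb is set low where only part of that length is transcribed.

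**Figure D1:**
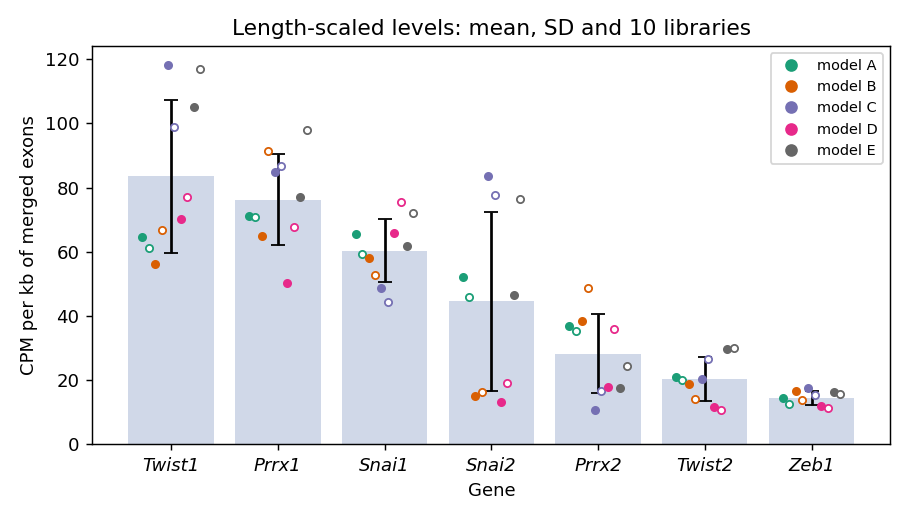
Level of each gene in CPM per kb of merged exons. Bars are means and error bars SDs over 10 libraries, with filled points for GFP+ and open points for GFP- libraries coloured by tumour model; Snai2 spans 13.1 to 83.7 while Zeb1 spans 11.4 to 17.6.

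The tumour model separated some of these genes widely and others little. The spread between models was taken as the SD over the 5 models of a model's mean log2 CPM, whose median over all 13986 tested genes was 0.38. Snai2 had an SD of 1.12, above 89.6% of tested genes. Prrx2 had 0.65, Twist2 0.55 and Twist1 0.43, all above that median, while Prrx1 (0.25), Snai1 (0.24) and Zeb1 (0.22) lay below it. Both populations of a letter come from the same model, and each model gives 1 pair, so these values are descriptions and carry no test.

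**Figure D2:**
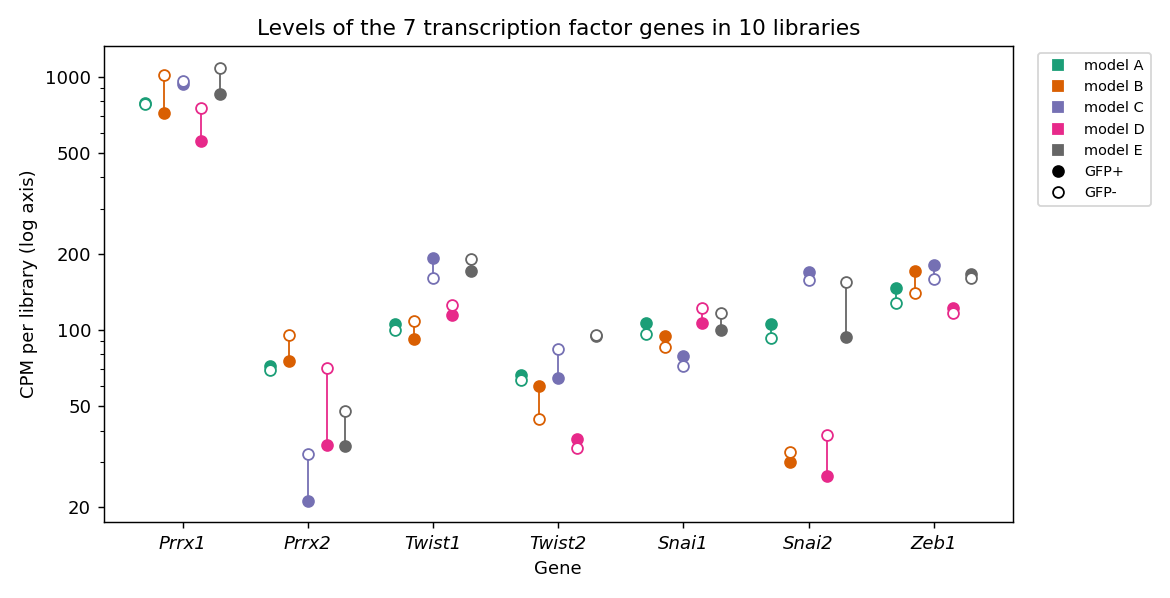
Level of each gene in CPM on a log axis, with each pair of GFP+ (filled) and GFP- (open) libraries joined and coloured by tumour model. Snai2 is at 38.3 CPM or less in models B and D and at 92.7 CPM or more in A, C and E, while Zeb1 stays between 117 and 180 CPM.

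Snai2 (Slug; ENSMUSG00000022676, mm10 chromosome 16, 14705852 to 14709385) encodes a repressor long known from neural crest migration. It stood at 106 CPM (GFP+) and 92.7 CPM (GFP-) in model A, 169 and 157 in C, and 94.0 and 154 in E. In model B it was 30.1 and 33.0 CPM, and in model D 26.5 and 38.3. The libraries of B and D thus lay below all libraries of the other 3 models, in both populations, a grouping read from these same values. The ratio of the highest to the lowest library was 6.37.

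Its relative Snai1 (Snail; ENSMUSG00000042821, chromosome 2, 167538195 to 167542814), a repressor needed for mesoderm formation at gastrulation, did not share this pattern. Snai1 was lowest in model C, at 78.7 CPM (GFP+) and 71.9 CPM (GFP-), where Snai2 was highest. It was 106 and 96.1 CPM in A, 94.2 and 85.3 in B, 107 and 122 in D, and 100.2 and 117 in E. The ratio of Snai2 to Snai1 reads ran from 0.249 in GFP+ cells of model D to 2.18 in GFP- cells of model C. Snai1 therefore had more reads than Snai2 in B and D, fewer in C, and about as many in model A (ratios 0.996 and 0.965). In model E the ratio was 0.938 in GFP+ and 1.32 in GFP- cells. Per length, the ratio of Snai2 to Snai1 ran from 0.199 to 1.75 over all libraries. Snai3, the remaining family member, was at 0.69 CPM or less.

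Twist1 (ENSMUSG00000035799, chromosome 12, 33957671 to 33959829), a factor of cranial mesoderm and crest, was highest in models C and E. It stood at 192 CPM (GFP+) and 161 CPM (GFP-) in C, and at 171 and 190 in E. In model A it was 105 and 99.5 CPM, in B 91.6 and 109, and in D 114 and 126. The libraries of C and E lay above those of A, B and D, a grouping read from these same values. The SD of Twist1 over models was above 57.3% of tested genes.

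Twist2 (Dermo1; ENSMUSG00000007805, chromosome 1, 91801461 to 91848028), known from dermal and connective tissue precursors, was lowest in model D. It stood there at 37.2 CPM (GFP+) and 34.1 CPM (GFP-), against 94.3 and 95.5 in E. Model A had 66.5 and 63.4 CPM, B 59.9 and 44.7, and C 64.7 and 84.2. The counts of Twist2 depend on strand: the antisense gene Gm29100 overlaps its first 1477 bases, and counting without strand left 33.9% of the reads that the stranded counts gave, whereas the other 6 genes kept 99.9% to 100.9%. Per length, Twist1 exceeded Twist2 by 2.99-fold to 7.18-fold, and in every library.

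Prrx1 (ENSMUSG00000026586, chromosome 1, 163245119 to 163313710), a marker of limb bud and connective tissue mesenchyme, stood at 788 CPM (GFP+) and 783 CPM (GFP-) in model A and at 938 and 960 in C. It was 718 and 1012 CPM in B, 555 and 749 in D, and 852 and 1086 in E. The populations were thus level in A and C and GFP+ cells were lower in B, D and E.

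Prrx2 (ENSMUSG00000039476, chromosome 2, 30834972 to 30881251), its close relative, was highest in models A and B and lowest in C. It stood at 72.2 CPM (GFP+) and 69.1 CPM (GFP-) in A, 75.4 and 95.2 in B, and 21.2 and 32.5 in C. Model D had 35.0 and 70.6 CPM and E 34.6 and 48.0. Prrx1 had 9.52 times the reads of Prrx2 in GFP+ cells of model B and 44.3 times in GFP+ cells of C. Per length these ratios were 1.69 and 7.85, so the balance of the relatives moved with the model.

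Zeb1 (ENSMUSG00000024238, chromosome 18, 5591860 to 5775467), the repressor that acts in mutual inhibition with miR-200 microRNAs, was the steadiest. It stood at 147 CPM (GFP+) and 128 CPM (GFP-) in A, 171 and 140 in B, and 180 and 159 in C. Models D and E had 121 and 117, and 166 and 160 CPM. Zeb2, its relative and a factor needed in Schwann cell differentiation, ran from 61.6 to 123 CPM, and the ratio of Zeb1 to Zeb2 reads from 1.01 to 2.59. Per length that ratio ran from 1.96 to 5.04.

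Across the 10 libraries Snai2 was most like Twist2 among the 7 genes (Pearson r = 0.80 of log2 CPM) and least like Prrx2 (r = -0.51). The most opposed pair was Twist1 and Prrx2 (r = -0.71), and Prrx1 and Prrx2 showed almost no relation (r = -0.03). The 10 libraries come from 5 tumour models, so these values describe the models and carry no p.

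None of the 7 genes passed the test between GFP+ and GFP- cells: edgeR's quasi-likelihood test with the model as a block, at a Benjamini-Hochberg adjusted p under 0.05 over all genes, called 0 of 13986 genes (0.0%). Unadjusted p under 0.05 held for 1257 genes (8.99%), DESeq2 with the same block called 190 genes, limma voom called 0, and none of the 7 was among the DESeq2 calls. Among the members 2 estimates were above and 5 below 0 (GFP+ minus GFP-). The median log2 difference was -0.07, against -0.0028 over all tested genes.

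**Figure D3:**
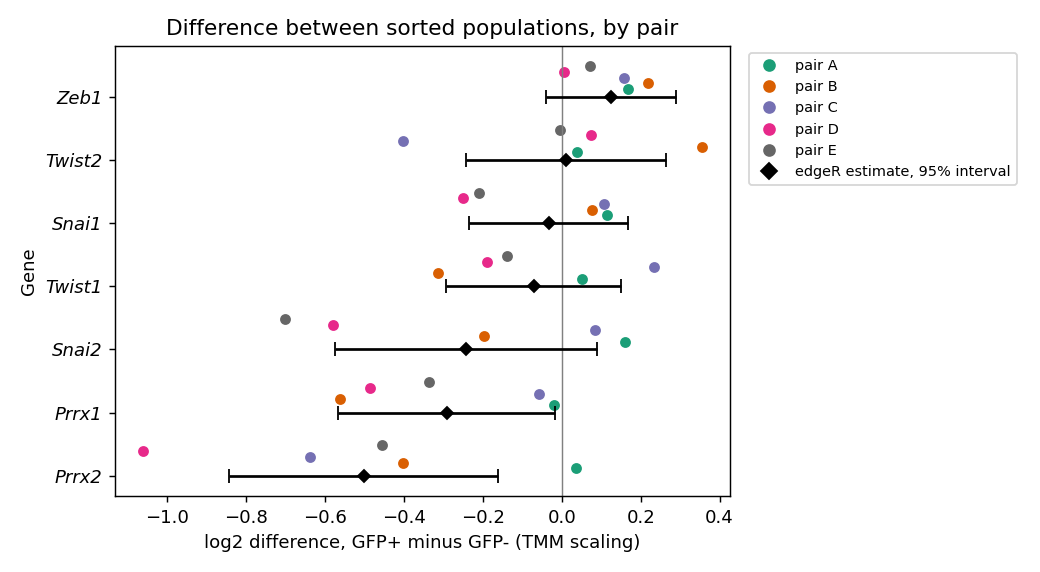
log2 difference of GFP+ minus GFP- cells for each gene, after TMM scaling (edgeR's correction for library composition). Coloured points are the 5 pairs, and diamonds with bars are the edgeR estimates with 95% intervals; Prrx2 and Prrx1 have intervals below 0, yet adjusted p of 0.408 and 0.529, and the other 5 intervals cross 0.

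The largest difference among the 7 was that of Prrx2. Its mean was 47.7 ± 24.5 (GFP+) and 63.1 ± 23.9 CPM (GFP-; SD, n = 5 each), and the populations overlapped across models. Within pairs it was lower in GFP+ cells in 4 of 5, with log2 differences of -0.40 (B), -0.64 (C), -1.06 (D) and -0.46 (E), and of 0.04 in A. The quasi-likelihood estimate was -0.50 (SE 0.15, 95% interval -0.84 to -0.16), at an edgeR adjusted p of 0.408. Without model D the estimate was -0.36, and without A -0.65.

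Prrx1 followed, with 770 ± 145 (GFP+) and 918 ± 146 CPM (GFP-; SD, n = 5 each). The estimate by edgeR was -0.29 (SE 0.12, 95% interval -0.57 to -0.02, adjusted p = 0.529). Its pair differences were -0.56 in B, -0.49 in D and -0.34 in E, but -0.02 in A and -0.06 in C. After TMM scaling it was lower in 5 of 5 pairs, as were 4.66% of all tested genes, and on library totals alone pair A was level. These 2 genes were the only ones of the 7 at an unadjusted p under 0.05, both lower in GFP+ cells. Of all tested genes 3.49% were lower and 5.5% higher at that level.

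Marker sums were measured in the same pairs. The 9 pericyte markers, of which 6 of 7 tested genes had a lower estimate in GFP+ cells, summed to 165 to 451 CPM (GFP+) and 152 to 997 CPM (GFP-). That sum was lower in GFP+ cells in pairs B, D and E and higher in A and C. Most of it came from Pdgfrb. Of the other pericyte markers, Rgs5 reached 63.8 CPM, Mcam 79.7, Cspg4 82.4 and Notch3 91.6. Higd1b reached only 0.31 CPM and Des 4.07 CPM. Rgs5 differed by -1.28 (SE 0.45) and Mcam, the 1 tested marker with a higher estimate, by 0.87 (SE 0.31). The 12 fibroblast markers, with 8 of 11 tested genes lower, summed to 3257 to 11649 CPM (GFP+) and 4536 to 11242 CPM (GFP-) and were lower in 4 of 5 pairs. The 12 mitosis genes, of which 0 were called and all 12 had an estimate above 0, summed to 494 to 862 CPM (GFP+) and 227 to 509 CPM (GFP-). No gene of these 3 lists was at 0 in all libraries. The Schwann lineage markers summed to 71.6 to 425 CPM (GFP+) and 47.0 to 174 CPM (GFP-), higher in GFP+ cells in 5 of 5 pairs. The part of these lists in the Prrx differences was not tested, and fewer cells of a type and less RNA per cell cannot be told apart in such bulk libraries.

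Zeb1 was the one gene of the 7 that was higher in GFP+ cells in 5 of 5 pairs, as were 5.11% of all tested genes. With Prrx1 it made 2 of 7 genes of 1 direction in all pairs, against 9.77% of all tested genes. The difference was small: 157 ± 23.4 CPM against 141 ± 18.9 (SD, n = 5 each), or 0.12 on the log2 scale (SE 0.07, 95% interval -0.04 to 0.29, adjusted p = 0.643 by edgeR). In pair D it was 0.0059, with overlapping populations across models.

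Snai2 showed no common direction. The pair differences were 0.16 in A and 0.08 in C, but -0.20 in B, -0.58 in D and -0.70 in E. The estimate was -0.24 (SE 0.14, 95% interval -0.58 to 0.09, adjusted p = 0.651 by edgeR), or -0.14 without model E. The difference between models was larger than that between populations: the SD over models was 1.12 and the root mean square pair difference 0.42.

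Snai1, Twist1 and Twist2 had estimates near 0. Snai1 differed by -0.03 (95% interval -0.23 to 0.17), Twist1 by -0.07 (-0.29 to 0.15) and Twist2 by 0.01 (-0.24 to 0.26), at adjusted p of 0.949, 0.872 and 0.989 by edgeR. Each was higher in GFP+ cells in some pairs and lower in others. For Twist2 the pairs B (0.35) and C (-0.40) went opposite ways. The sign of the Twist2 estimate depended on the processing and on the pairs kept, and that of Snai1 turned without pair D. The unadjusted 95% intervals leave out a 2-fold difference in either direction for all 7 genes.

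**Figure D4:**
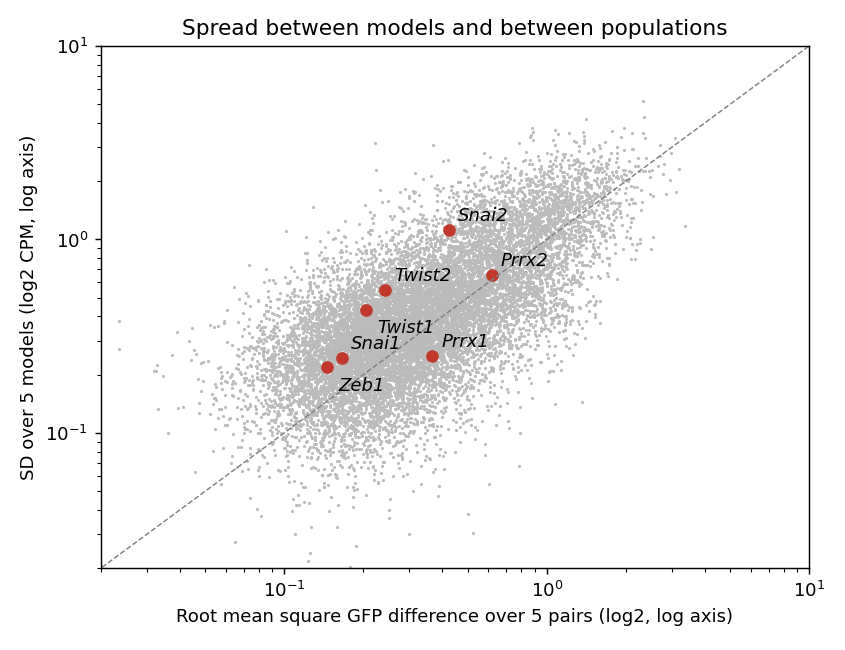
Spread between the 5 models (SD of log2 CPM, vertical log axis) against the root mean square GFP difference over 5 pairs (horizontal log axis) for all 13986 tested genes in grey and the 7 genes in red. Snai2 lies far above the dashed line of equal values, at 1.12 against 0.42, while Prrx1 is below it, at 0.25 against 0.37. For the same spread, a root mean square difference is larger than an SD. The line therefore does not mark equal spread, and the position of Prrx1 does not show which of its spreads is larger.

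The other factors of this kind were followed as a list of 12, of which 9 were tested, 5 with a higher and 4 with a lower estimate in GFP+ cells and 0 called (median log2 difference 0.0079). Foxf2, a forkhead factor of gut and craniofacial mesenchyme, differed by 1.16 (SE 0.29, adjusted p = 0.379 by edgeR) at levels of at most 1.68 CPM. Foxc1, a forkhead factor of crest-derived mesenchyme, differed by -0.58 (SE 0.15, adjusted p = 0.379), Tbx18 by -0.34 (SE 0.21) and Zeb2 by 0.11 (SE 0.14, adjusted p = 0.861). Gsc and Tcf21 were nearly silent, at 0.11 CPM or less.

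No dimer partner of Twist passed the test. The E protein genes Tcf3, Tcf4 and Tcf12 had log2 differences of -0.08, -0.12 and -0.07 (SE 0.07, 0.11 and 0.08). Id1 differed by -0.24, Id2 by 0.03 and Id3 by -0.22 (SE 0.26, 0.26 and 0.15), and Hand2, which also pairs with Twist, by 0.44 (SE 0.49). Of 9 listed partners and inhibitors 8 were tested and 0 called. The Id genes varied by model: Id1 stood at 3.31 and 3.47 CPM in model C, where Twist1 was among its highest, and at 50.5 and 36.7 CPM in model E, where Twist1 was as high.

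Co-repressors through which Snail and Zeb proteins act differed little, with 8 of 12 tested genes higher, 4 lower and 0 called (median 0.02). The exception in size was Suv39h1, a histone H3 lysine methyltransferase recruited by Snai1, at 72.3 ± 17.8 (GFP+) and 43.5 ± 6.63 CPM (GFP-; SD, n = 5 each). It was higher in 5 of 5 pairs by a log2 difference of 0.68 (SE 0.13, adjusted p = 0.31 by edgeR). Kdm1a, the lysine demethylase bound by Snai1, differed by 0.08 (SE 0.08), Ctbp1, the co-repressor of Zeb proteins, by -0.15 (SE 0.07) and Ehmt2 by -0.06 (SE 0.07). The summed level of the mitosis genes was also higher in GFP+ cells in 5 of 5 pairs, and its part in the Suv39h1 difference was not tested.

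Genes that set the stability of the Snai1 protein were all tested, 4 higher, 7 lower and 0 called of 11 (median -0.08). Pak1, a kinase that phosphorylates Snai1, was higher in 5 of 5 pairs by 0.43 (SE 0.11, adjusted p = 0.363 by edgeR), and Csnk1e by 0.15 (SE 0.07). Gsk3b, the kinase that marks Snai1 for destruction, differed by -0.26 (SE 0.13) and the deubiquitinase gene Usp27x by -0.38 (SE 0.16). Protein levels were not measured in these libraries.

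The epithelial genes that these factors repress were mostly silent in both populations. Of 26 listed genes only 5 passed the low-count filter, and 16 stayed under 1 CPM in every library, among them the epithelial splicing factor gene Esrp1 and the epithelial factor genes Grhl2, Ovol1 and Ovol2. Cdh1 was at 0.27 CPM or less in models A, B, D and E, and at 2.77 CPM (GFP+) and 2.59 CPM (GFP-) in model C. Epcam, an epithelial adhesion gene, ran from 0.917 to 4.39 CPM (log2 difference -0.04, SE 0.28). Of the 5 tested genes 4 had a higher estimate and 0 were called. The desmosomal gene Dsp differed by 0.77 (SE 0.25, adjusted p = 0.453 by edgeR) and Krt18 by 1.08 (SE 0.62, adjusted p = 0.648).

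Keratin 8 was the epithelial gene with the highest levels, and it differed by model. Krt8 stood at 31.2 CPM (GFP+) and 124 CPM (GFP-) in model A, 188 and 229 in C, and 158 and 105 in E. It was 9.69 and 0.226 CPM in B and 2.19 and 1.56 in D. The models with low Krt8 were thus those with low Snai2, a pattern noted after the values were seen. Krt18 did not share this grouping. It stood at 77.2 CPM (GFP+) and 3.53 CPM (GFP-) in B and at 16.9 and 10.6 in D. In A it was 66.9 and 93.8 CPM, in C 38.3 and 28.6, and in E 58.7 and 22.7. The log2 difference of Krt8 between populations was 0.21 (SE 0.73).

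Mesenchymal genes known to lie downstream of these factors split in direction. All 26 were tested, 11 with a higher and 15 with a lower estimate in GFP+ cells and 0 called (median -0.06). Vim, the intermediate filament vimentin, stood at 4415 ± 1280 (GFP+) and 4208 ± 1338 CPM (GFP-; SD, n = 5 each), and differed by 0.05 on the log2 scale (SE 0.16). N-cadherin (Cdh2) differed by 0.08 (SE 0.08) and ran from 85.0 to 381 CPM, with its highest levels in model B. Tenascin C (Tnc), a matrix gene that Prrx1 is known to activate, was higher in 5 of 5 pairs by 0.36 (SE 0.11, adjusted p = 0.417 by edgeR), and the integrin gene Itga5 by 0.29 (SE 0.09, adjusted p = 0.417). The collagen cross-linking enzyme gene Lox differed by -0.69 (SE 0.16, adjusted p = 0.354) and the growth factor receptor gene Pdgfra by -0.51 (SE 0.13, adjusted p = 0.379), both lower in 5 of 5 pairs. Pdgfra is also among the fibroblast markers. Prrx1, too, was lower in 5 of 5 pairs after TMM scaling, but the sizes differed by pair. From A to E, Prrx1 differed by -0.02, -0.56, -0.06, -0.49 and -0.34. In the same order Pdgfra differed by -0.56, -0.60, -0.61, -0.71 and -0.05. Lox differed by -0.17, -1.12, -0.43, -0.98 and -0.77. Tnc went the other way.

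Genes most like each member were taken by Pearson r of log2 CPM over the 10 libraries among 13174 genes of at least 1 CPM, so a high r is set by that choice. For Snai2 they were Pbx3 (0.99), Ldhd (0.98) and Sec23ip (0.98). Pbx3, a homeodomain factor, ran from 18.5 (GFP+) and 18.0 CPM (GFP-) in model B to 65.3 and 69.8 CPM in C. For Twist1 they were Dpp4 (0.97), a surface peptidase of fibroblast progenitors, Crem (0.97) and Mrm1 (0.97). Dpp4 spanned 4.69 to 111 CPM, with 83.7 and 68.1 CPM in C and 95.1 and 111 in E. For Twist2 they were the lamin gene Lmna (0.94), B230216N24Rik (0.94) and Rnf169 (0.94). B230216N24Rik lies on chromosome 1, as Twist2 does. Zeb1 was most like Pin4 (0.99), Slc35d1 (0.96) and Tmem245 (0.93), and Snai1 like Shroom1 (0.96), Lcp1 (0.95) and Slfn3 (0.93). Prrx2 was most like Lrsam1 (0.98), Dhx35 (0.95) and Ctdspl (0.94), of which the first 2 also lie on chromosome 2. Lrsam1 starts within 2.5 Mb of Prrx2, and Dhx35 does not. The 3 genes most like Prrx1, Zfp148 (0.98), Dyrk1a (0.92) and Dnaja3 (0.92), all lie on chromosome 16.

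Genes around Snai2, like Snai2 itself, stood low in models B and D and highest in C. The 33 genes that start within 2.5 Mb of Snai2 had a median r of 0.67 with it, 29 of them above 0. The 409 genes of chromosome 16 had a median of 0.47 and the 12771 genes elsewhere 0.02. Relative to the mean of the 5 models, chromosome 16 stood at a median log2 of 0.20 in C, -0.16 in B and -0.15 in D, with other chromosomes between -0.01 and 0.01. Snai2 itself stood further out, at 1.18 in C, -1.20 in B and -1.18 in D. In models A and E Snai2 stood at 0.44 and 0.77, while its nearby genes were at 0.07 in both and chromosome 16 at 0.07 and 0.0077. A shift of like size was seen on chromosome 18 in model E, where the chromosome stood at 0.21, the 18 genes near Zeb1 at 0.22 and Zeb1 at 0.18. From A to D, Zeb1 stood at -0.12, 0.06, 0.20 and -0.32. In the same order its nearby genes stood at -0.14, -0.05, -0.02 and -0.14, and chromosome 18 at -0.10, -0.04, -0.03 and -0.03. Zeb1 was thus highest in C, where its nearby genes were not raised. The 20 genes near Twist1 stood at 0.43 in model C, as Twist1 did, but at -0.11 in model E, where Twist1 was at 0.49. The medians of r for nearby genes were 0.34 for Zeb1, 0.32 for Twist1 and 0.01 for Snai1. They were 0.14 for Twist2, 0.13 for Prrx1 and 0.15 for Prrx2. Over all of chromosome 12 the median r with Twist1 was -0.18. These windows were chosen after the data were seen, and DNA copy number was not analysed here.

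**Figure D5:**
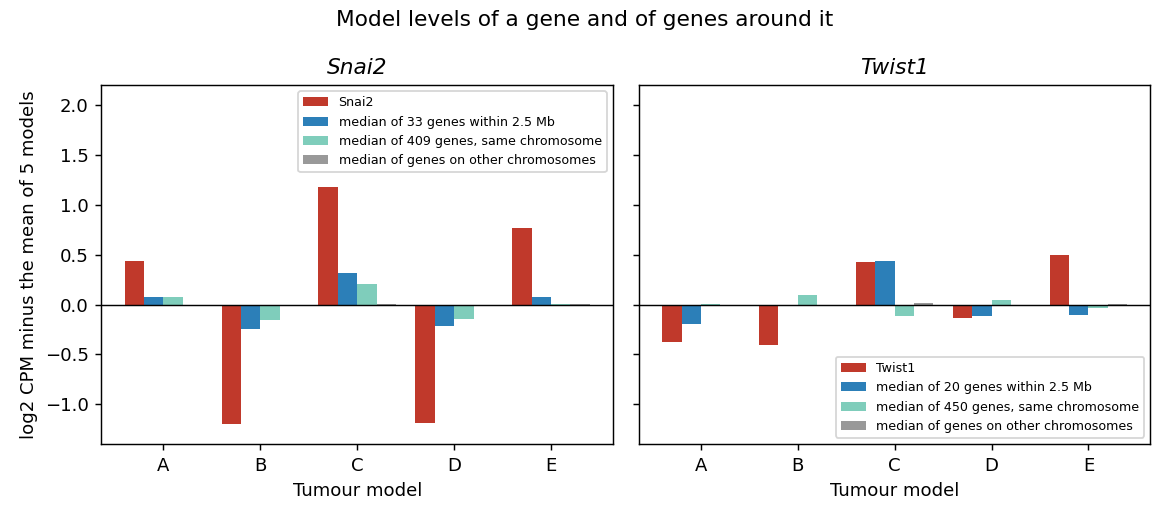
Level in each tumour model relative to the mean of the 5 models (log2 CPM) for Snai2 (left) and Twist1 (right), with medians of genes starting within 2.5 Mb, of the same chromosome and of other chromosomes. Around Snai2 all 3 local bars are below 0 in B and D and above 0 in C; around Twist1 the nearby genes follow it in C (0.43) but not in E (-0.11).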

How the data were processed

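The authors deposited, for each library, unnormalized counts of reads for every gene. STAR 2.4.2.8 and mm10 are named per the submitters' processing notes. The sources used here name no annotation, kit or strand setting. Column 4 (the opposite strand to column 3) held 96.9% to 97.1% of stranded gene reads and was used. Summary lines without a gene (21.3% to 24.3% of reads) were left out. Symbols and exons came from GENCODE vM21 (46005 identifiers matched, 512 did not).

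Per the labels' protocols, wildtype and dead cells were gated out by sorting. The test was edgeR 4.0.16 (R 4.3.3): TMM, filterByExpr, quasi-likelihood, model as a block, Benjamini-Hochberg over all genes. The block follows the design text, since both populations of a letter come from 1 model (within-pair correlation of deviations 0.628 to 0.867). Pair differences used log2 CPM with a prior count of 2. Fits were tested on simulated data. Alternatives included DESeq2 1.42.0, limma 3.58.1, other scalings, other filters, unstranded counts and leaving out each pair. Intervals are edgeR estimates ± t quantile times SE.

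The 7 genes and the lists were chosen with earlier results of these data known. The naming rule took the 2 genes of smallest p per direction in each list, some fixed genes, and the 3 most alike genes per member; marker lists are given by sums. Krt8, Sox10, Ptprc, Pecam1, Pdgfrb, Rgs5, Mcam, Cspg4, Notch3, Higd1b, Des, Esrp1, Grhl2, Ovol1, Ovol2, Gsc, Tcf21 and Snai3 were named outside it. P-values of the blocked fit set a GFP difference only against its spread over these pairs, which the labels do not tie to separate animals.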

Additional observations from a re-analysis of the deposited data

How the results depend on the processing

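The count of called genes stayed at 0 with other scalings, the stricter filter, voom, unstranded counts, without the replicate block and without any 1 pair. It was 47 with no filter on low counts and 190 with DESeq2; the cause was not tested. None of the 7 genes was called in any of the 13 alternative fits, where the smallest adjusted p was 0.14 (Prrx2, DESeq2). Of 91 member values 84 kept their direction and 7 reversed, all of Twist2 or Snai1. Twist2 was -0.0216 without the replicate block, -0.0048 with no filter and -0.0698 by voom, and -0.0743 to 0.114 without 1 pair. Snai1 was -0.076 to 0.0225 without 1 pair, positive without D. Over all alternatives Prrx2 ran from -0.65 to -0.36, Prrx1 from -0.37 to -0.22 and Zeb1 from 0.10 to 0.16. Snai2 ran from -0.35 to -0.14 (without E) and Twist1 from -0.15 to -0.01 (without B). The SDs over models moved by less than 0.02 with another prior count or with library totals.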

Other observations

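Of 10 genes induced by tissue dissociation, such as Fos and Jun, all were tested, 2 had a higher and 8 a lower estimate in GFP+ cells and 0 were called by edgeR (median log2 difference -0.26). They summed to 5895 to 16588 CPM (GFP+) and 5482 to 16918 CPM (GFP-), and the sum was higher in GFP+ cells in 3 of 5 pairs. Jun was a large part of that sum, at 6701 against 2312 CPM in pair A and 5895 against 1382 CPM in pair B. Fos stood at 1236 against 1699 CPM in pair A and 757 against 713 CPM in pair B.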
